A study of Mus musculus with 9 samples.

Results

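The 44 genes described here encode the proteins that carry a cell through mitosis: the mitotic cyclins and CDK1, the Aurora and Polo kinases, the spindle checkpoint, the kinetochore, the mitotic kinesins, condensin, separase and its controls, and the cytokinesis machinery. They were chosen by symbol, as the genes of the deposited count table whose name stood on a list of mitosis and chromosome segregation genes. All 44 were found among the 49671 genes of the table, and all 44 passed the filter on low counts that left 15766 genes for testing, so every member is accounted for in each comparison. The cells were Panc02, a cultured line of mouse pancreatic ductal adenocarcinoma, and their poly(A) RNA was sequenced in bulk. There were 9 libraries in 3 groups of 3, none of them treated, from cells kept in DMEM with fetal bovine serum. The parental group was the unedited line, with the genotype label wild type. KO_1E7 was a single clone labelled as a knockout of VPAC2, a receptor for vasoactive intestinal peptide encoded by Vipr2, and CRISPR_1G2 was a single clone labelled CRISPR-wild type. By the design text of the series both clones came from the knockout, unlike the label of CRISPR_1G2, and groups here follow the labels. Each clone is 1 line, so a difference of genotype cannot be told apart from a difference between clones. The series was made to study VPAC2 in the growth of pancreatic cancer cells, and the comparisons below ask whether genes of cell division differed between the groups.

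Mitosis is driven by CDK1 bound to cyclin A2 or to a B-type cyclin, with Aurora A and PLK1 helping to build the spindle. Kinetochores hold the chromosomes on spindle microtubules while the spindle checkpoint restrains CDC20, the activator of the anaphase-promoting complex, until all chromosomes are attached. The complex then marks cyclin B and securin for destruction, separase cuts cohesin, and the midzone proteins guide cytokinesis. Most of these transcripts peak in G2 and M phase, so their sum in a growing culture is often used to gauge the share of dividing cells, and many are controlled by the DREAM and MuvB complexes, B-MYB and FOXM1 through a promoter element called the cell cycle genes homology region (CHR).

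Gene counts ranged from 27898705 to 51878289 per library. Levels are given as CPM, the counts of a gene per 1000000 counts of its library after TMM scaling, always for libraries 1, 2 and 3 in that order, and differences as log2 fold changes with their standard error (SE), also where one is written after ±; after a mean CPM, ± gives the SD. Genes were called at an adjusted p of at most 0.05 by edgeR's quasi-likelihood test with Benjamini-Hochberg adjustment over all genes tested. Vipr2 itself was barely detected in any library: the parental libraries 1, 2 and 3 had 6, 3 and 12 reads of it, those of KO_1E7 1, 2 and 1, and those of CRISPR_1G2 1, 13 and 12. CRISPR_1G2 1 was as low as KO_1E7, so at this depth the gene checks the labels only weakly. Parental 3 stood apart in that 18.01% of its gene counts fell on genes related to ribosomal RNA, against 0.736% to 1.44% in the other 8 libraries. Of 12 markers of ductal epithelium, 11 had at least 10 counts in some library, and none was at 0 throughout. Their summed level was 1369 to 2066 CPM in the parental group, 1290 to 2112 in KO_1E7 and 907 to 2130 in CRISPR_1G2. Of other cell types, 5 of 6 islet markers, among them Ins1, Gcg and Sst, and the acinar genes Prss1 and Ptf1a had no count in any library. Acinar markers, chiefly Cela1, summed to 7.37 to 13.3 CPM in KO_1E7 and to at most 2.68 CPM elsewhere. The summed level of 8 immune markers was at most 28.1 CPM and that of 6 endothelial markers at most 1.83 CPM, while 8 fibroblast markers summed to between 49.9 and 151 CPM. The deposited tables of the third library of each group carried the word NSG in their names where those of the other 2 carried a date. What that word stands for is not given in the sources used here, and it is treated only as a name that the 3 libraries share. The labels do not say whether replicates were separate cultures; p-values reflect the spread among these libraries, which may be technical.

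All members were detected in every library. Per kilobase of the exon length in the deposited tables, Cdc20, the mitotic activator of the anaphase-promoting complex, had the highest mean over the 9 libraries, 126 CPM per kilobase, with libraries from 67.1 to 181. It was followed by Anln (80.5 CPM per kilobase), which encodes the actin-binding protein anillin of the cleavage furrow, Top2a (78.9), DNA topoisomerase II alpha, and Ube2c (77.6), the ubiquitin-conjugating enzyme that works with the anaphase-promoting complex. Cdc20 was above Top2a and Ube2c in all 9 libraries and above Anln in 8. Among the other 3 the order varied: Anln exceeded Top2a in 3 libraries and Ube2c in 5, and Top2a exceeded Ube2c in 4. The lowest were Ttk, encoding the checkpoint kinase MPS1, at 8.46, and Pttg1, encoding securin, at 4.98 CPM per kilobase. Ttk ranged from 4.57 to 10.6 and Pttg1 from 2.69 to 6.64, and Ttk was the higher in all 9 libraries.

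**Figure D1:**
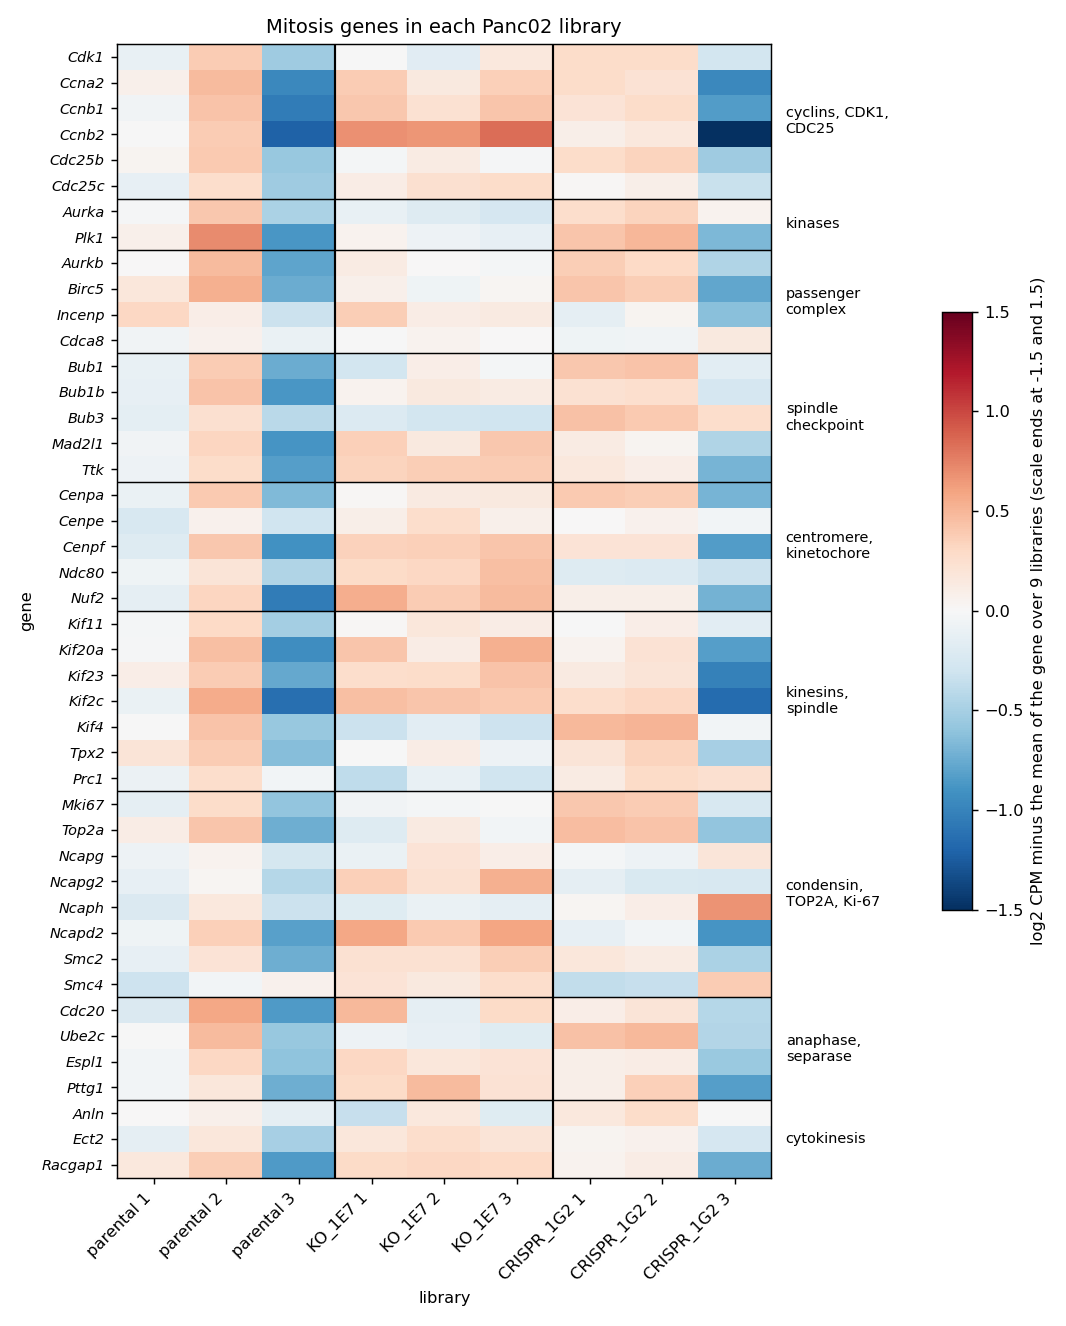
Level of each of the 44 mitosis genes (rows, grouped by role) in each of the 9 libraries (columns), as log2 CPM minus the mean of that gene over the 9 libraries; blue is below and red above that mean, and the colour scale ends at -1.5 and 1.5. The columns of parental 3 and CRISPR_1G2 3 are mostly blue, KO_1E7 3 is not, and Smc4, Ncaph, Ncapg, Cdca8 and Prc1 are red or near white in CRISPR_1G2 3.

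The promoters of the members were examined for the CHR, since the members share a time of expression in the cell cycle. RefSeq's promoter table for GRCm38.p6, which spans 250 bases before to 50 bases after each start site, held 37 of the 44 members; Smc4, Ccna2, Aurkb, Cdc25c, Kif20a, Incenp and Tpx2 were not matched. A CHR was searched as TTTGAA or TTCGAA. The box bound by NF-Y was searched as CCAAT. Both strands were read. A CHR match was present in 30 of the 37 promoters (81.1%), against 21.7% of all 27025 genes in the table. At least 1 CCAAT stood in 28 (75.7%), against 41.1% of all genes. Both a CHR and at least 2 CCAAT boxes were found in 16 members (43.2%), and in 2.68% of all genes. Only 1 pair of CHR and CCAAT matches overlapped. The CHR matches crowded at the start site: 27 of the 37 members (73%) had one between 50 bases before and 49 bases after it, where 5.3% of all genes did. CCAAT lay within 100 bases before the start in 24 members (64.9%) and 19.7% of all genes. A match is a description of letters and not a measured binding site.

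The 120 bases just before the start site are shown for 6 members, 5' to 3' on the strand of the gene, with matches to either motif in capitals (a CHR on the opposite strand reads TTCAAA, and a CCAAT box there reads ATTGG). Cdk1 and Cdc20 are shown for the common layout, with a CHR close to the start and CCAAT boxes near it. Ccnb2, the member of largest log2 fold change, has CCAAT boxes that begin 87, 54 and 21 bases before the start, and its CHR matches lie outside the stretch. Bub3 and Ncapg2 were called between the clones, and Kif11 stands for the kinesins.
Ccnb2 (chr9:70421555-70421674, minus strand, GRCm38.p6): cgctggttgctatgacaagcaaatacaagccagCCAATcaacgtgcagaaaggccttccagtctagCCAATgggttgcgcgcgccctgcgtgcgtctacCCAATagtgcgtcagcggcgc
Cdk1 (chr10:69352913-69353032, minus strand, GRCm38.p6): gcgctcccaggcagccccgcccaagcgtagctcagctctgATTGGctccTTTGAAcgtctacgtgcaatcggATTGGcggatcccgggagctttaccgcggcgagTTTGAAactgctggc
Cdc20 (chr4:118437344-118437463, minus strand, GRCm38.p6): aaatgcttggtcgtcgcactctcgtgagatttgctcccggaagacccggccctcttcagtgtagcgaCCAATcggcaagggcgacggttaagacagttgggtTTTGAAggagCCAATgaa
Bub3 (chr7:131560250-131560369, plus strand, GRCm38.p6): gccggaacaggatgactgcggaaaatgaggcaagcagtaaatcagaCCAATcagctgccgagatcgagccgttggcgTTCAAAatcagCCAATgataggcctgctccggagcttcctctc
Ncapg2 (chr12:116405316-116405435, plus strand, GRCm38.p6): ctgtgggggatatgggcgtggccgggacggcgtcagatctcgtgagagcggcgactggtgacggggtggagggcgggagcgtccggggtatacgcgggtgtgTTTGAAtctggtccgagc
Kif11 (chr19:37376262-37376381, plus strand, GRCm38.p6): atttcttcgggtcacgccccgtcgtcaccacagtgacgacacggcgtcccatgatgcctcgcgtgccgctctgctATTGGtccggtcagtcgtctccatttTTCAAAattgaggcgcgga

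Ncapg2 has a CHR near the start and no CCAAT in the stretch, whereas Bub3 carries a CHR between its 2 CCAAT boxes.

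**Figure D2:**
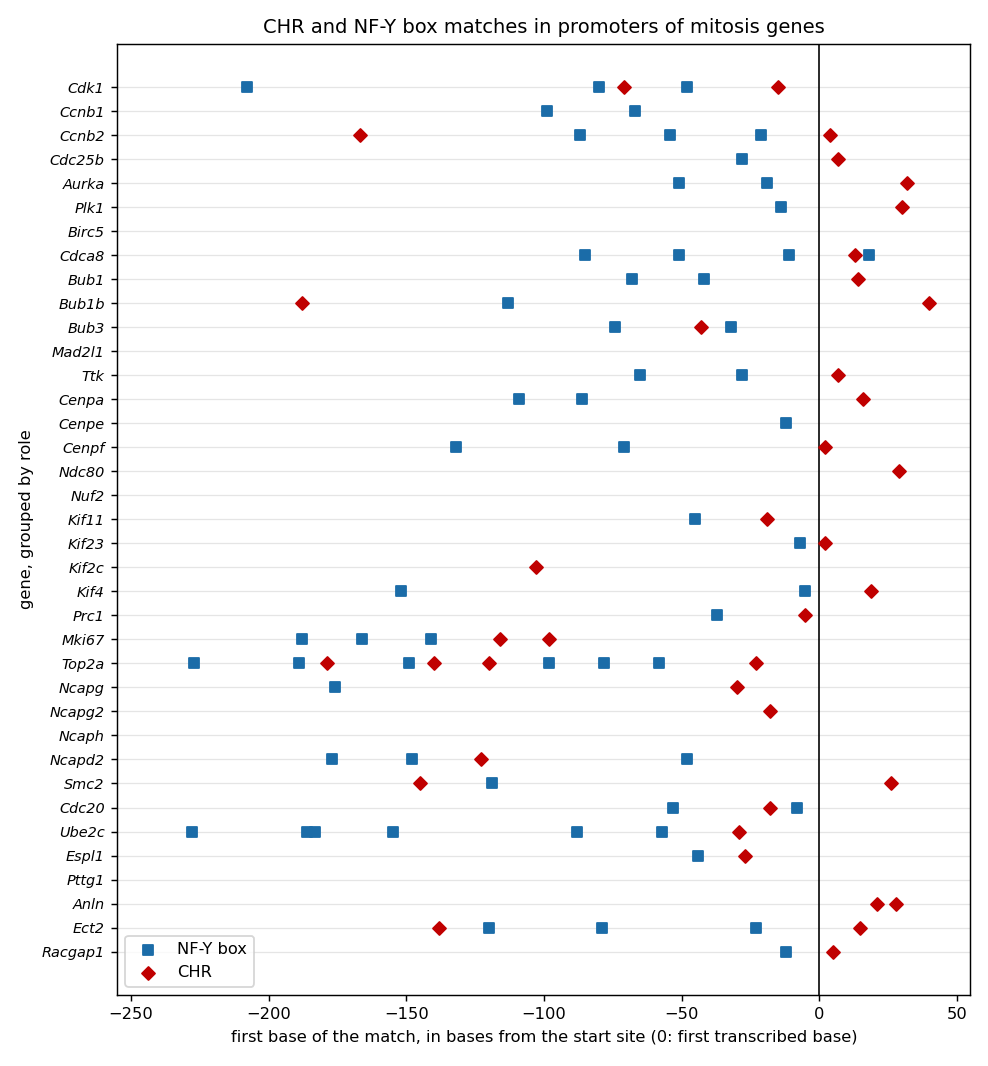
Position of each CHR match (red diamonds) and each CCAAT match (blue squares, marked as NF-Y box) in the 37 promoters matched, by role; the horizontal axis gives the first base of the match in bases from the start site. Red diamonds gather around the start site in 27 of 37 genes, with blue squares mostly between 100 bases and 1 base before it.

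Between KO_1E7 and parental no member passed the test. By edgeR 0 members were called, where 5.42% of all genes were, and 3 had an unadjusted p below 0.05, against 23.7% of all genes; DESeq2 called 1, Ncapg2 (log2 fold change 0.55, adjusted p = 0.00655), where it called 15.0% of all genes. The log2 fold changes ranged from -0.31 for Prc1 to 0.87 for Ccnb2, with 33 above 0 and 11 below. Their median was 0.24, beside -0.03 over all genes. All 3 KO_1E7 libraries lay above all 3 parental libraries for 10 members, where 17.2% of all genes did so, and below them for 1, Prc1, where 17.3% did. That median rested on single parental libraries: it was 0.44 without parental 2, 0.02 without parental 3, and 0.01 with parental 3 and CRISPR_1G2 3 both excluded. In bulk RNA, fewer cells in mitosis and less of each transcript per cell cannot be told apart, here or below.

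Between the CRISPR_1G2 clone and parental, 0 members were called by edgeR, where 0.254% of all genes were, and 1 member, Bub3, had an unadjusted p below 0.05, against 7.73% of all genes; DESeq2 also called 0, where it called 1.49% of genes. Log2 fold changes lay between -0.27 (Incenp) and 0.44 (Bub3), with a median of 0.06 beside 0.02 for all genes. The median was 0.31 without parental 2, 0.26 without CRISPR_1G2 3, -0.02 without CRISPR_1G2 1, -0.03 without CRISPR_1G2 2 and -0.16 without parental 3, so its sign depended on the libraries kept. The libraries of the groups separated for 1 member, Bub3, higher in CRISPR_1G2, where 6.64% of all genes separated in that direction and 6.45% in the other.

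Between the clones 3 members were called, where 12.7% of all genes were. Ncapg2 and Ndc80 were higher in KO_1E7 (5.71% of all genes were called higher) and Bub3 was lower (7.03% called lower); 6 members had an unadjusted p below 0.05, against 29.0% of genes. DESeq2 called 4, these and Prc1, where it called 21.4% of genes. The median over the members was 0.19, beside -0.03 over all genes, with 27 members above 0; without CRISPR_1G2 3 the median was 0.11. All KO_1E7 libraries exceeded all CRISPR_1G2 libraries for 17 members, where 19.2% of all genes did, and fell short of them for 5 (Aurka, Bub3, Kif4, Prc1 and Ncaph), where 19.4% did. In the main edgeR fit the share of members called was below that of all genes in each of the 3 comparisons. With 0.254% of all genes called for CRISPR_1G2 against parental, 0 of 44 members there carries little information. The share also depended on the fit. With a block of dates, described below, 7 of 44 members were called against parental, where 11.8% of all genes were. Between the clones that fit called 9, where 14.3% of all genes were called. The comparisons share libraries, so their values are set side by side below and not taken as separate evidence.

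**Figure D3:**
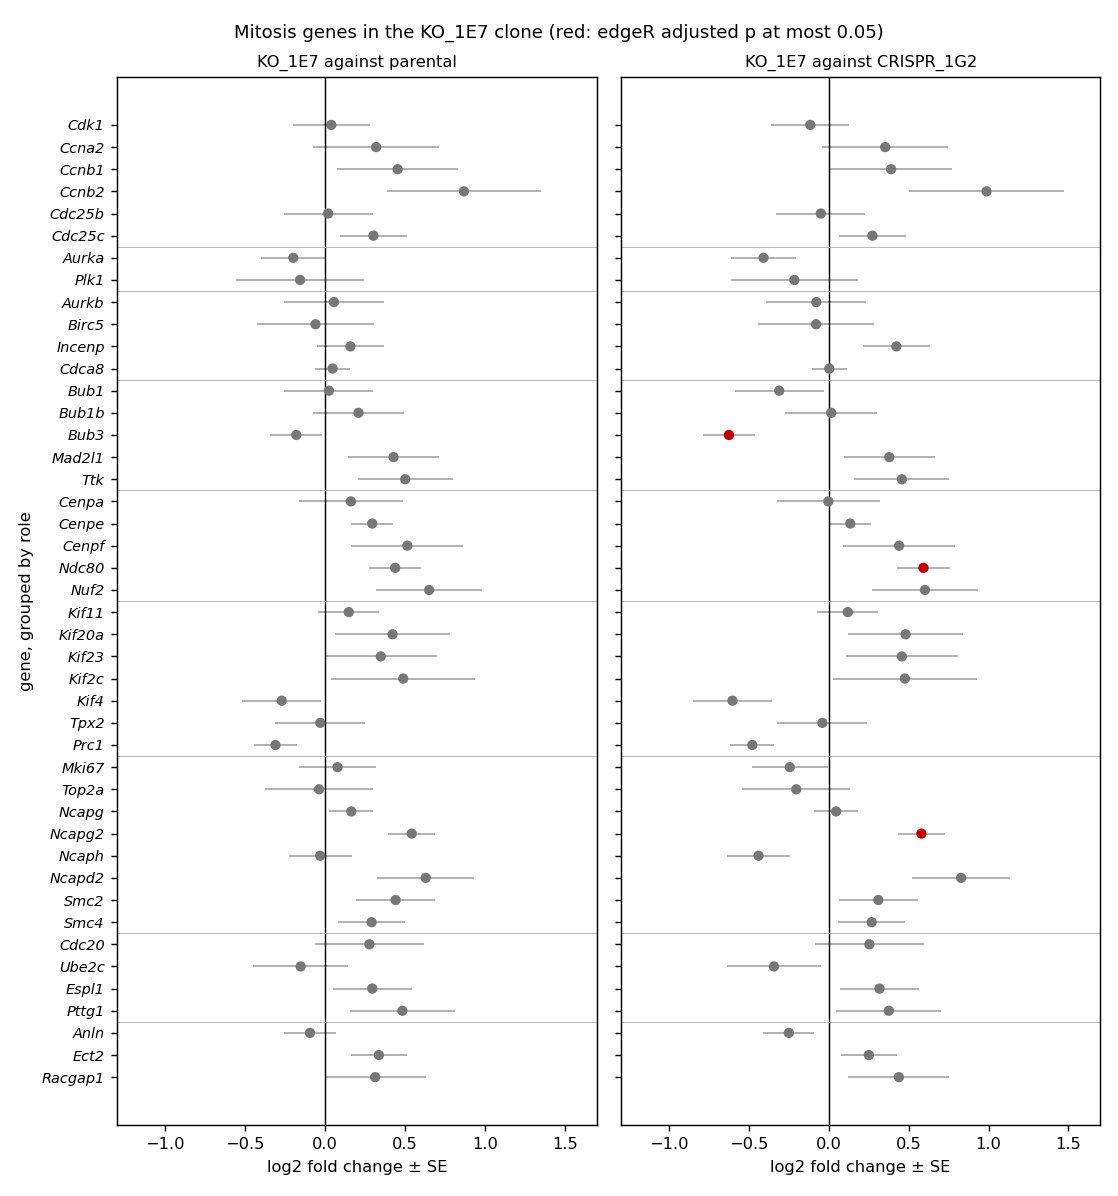
Log2 fold change (horizontal axis, points) and its SE (bars) of each of the 44 genes, grouped by role, for KO_1E7 against parental (left) and against CRISPR_1G2 (right); red marks genes called by edgeR. The 3 red points are Ndc80 at 0.59, Ncapg2 at 0.58 and Bub3 at -0.62, all in the right panel.

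Condensin is the ring complex that compacts mitotic chromosomes. Ncapg2, a subunit of condensin II (chromosome 12), was at 160.0, 179 and 129 CPM in parental cells, against 224, 205 and 253 in KO_1E7 and 159, 149 and 148 in CRISPR_1G2. All 3 KO_1E7 libraries lay above the 6 others, which overlapped each other. The group means were 156 ± 24.96 CPM (SD, n = 3) in parental, 227 ± 24.1 in KO_1E7 and 152 ± 5.99 in CRISPR_1G2. Against CRISPR_1G2 the log2 fold change was 0.58 (SE 0.15, adjusted p = 0.0356), and against parental it was 0.54 (SE 0.15, adjusted p = 0.0662), which missed the threshold. Ncapd2, a condensin I subunit, was at 187, 250.4 and 111 CPM (parental), 294, 258 and 296 CPM (KO_1E7) and 180.2, 191 and 106 CPM (CRISPR_1G2). KO_1E7 was again above every other library, but the third libraries of parental and CRISPR_1G2 were far below their partners. Its log2 fold change was 0.63 ± 0.30 against parental and 0.83 ± 0.31 against CRISPR_1G2, with adjusted p of 0.251 and 0.112. Ncaph, the kleisin of condensin I, showed another order: 80.4, 104 and 74.7 CPM in the parental libraries, 81.8, 86.7 and 84.4 CPM in KO_1E7 and 94.7, 99.4 and 149 CPM in CRISPR_1G2. CRISPR_1G2 3 was the highest library, all 3 CRISPR_1G2 libraries lay above KO_1E7, and parental overlapped both. Its log2 fold change was -0.44 ± 0.20 between the clones (adjusted p = 0.179) and 0.41 ± 0.20 for CRISPR_1G2 against parental (adjusted p = 0.693). Ncapg, also of condensin I, was at 105, 115 and 92.5 CPM in parental cells, against 103, 128 and 118 in KO_1E7 and 108, 105 and 125 in CRISPR_1G2, with all groups overlapping. Smc4, an ATPase shared by both condensins, was at 260.2, 314 and 339.6 CPM (parental), 372, 357 and 389 CPM (KO_1E7) and 251.2, 255 and 421 CPM (CRISPR_1G2). CRISPR_1G2 3 exceeded all other libraries, and parental 3 was the highest of its group. Smc2, its partner ATPase, was at 165, 207 and 108 CPM in the parental libraries, 210.1, 209.6 and 232 CPM in KO_1E7 and 202, 195 and 129 CPM in CRISPR_1G2, with KO_1E7 just above the other libraries. The remaining chromosome genes, Top2a and Mki67, which encodes the surface protein Ki-67 used as a proliferation marker, had log2 fold changes of -0.04 and 0.08 against parental and -0.20 and -0.24 against CRISPR_1G2, none of them called.

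Among centromere and kinetochore genes, Ndc80, whose product binds microtubules at the outer kinetochore (chromosome 17), was at 59.7, 71.6 and 45.8 CPM in parental cells, against 76.5, 77.9 and 85.4 in KO_1E7 and 54.5, 54.2 and 50.2 in CRISPR_1G2. KO_1E7 lay above the 6 other libraries, and CRISPR_1G2 lay within the parental range. The group means were 59.01 ± 12.9, 79.9 ± 4.82 and 52.99 ± 2.4 CPM in parental, KO_1E7 and CRISPR_1G2 (SD, n = 3). Between the clones the log2 fold change was 0.59 ± 0.16 (edgeR adjusted p = 0.0467), and against parental 0.44 ± 0.16 (adjusted p = 0.15). Nuf2, which forms a heterodimer with NDC80, was at 79.2, 109 and 41.98 CPM (parental), 126, 114 and 121 CPM (KO_1E7) and 92.2, 92.2 and 53.1 CPM (CRISPR_1G2). It separated KO_1E7 from both other groups as well, but its log2 fold changes of 0.65 ± 0.33 and 0.60 ± 0.33 were not called (adjusted p = 0.273 and 0.266). Cenpa, the histone H3 variant that marks centromeres, overlapped between all groups, at 143, 203 and 97.3 CPM in the parental libraries, 156, 169.5 and 171 CPM in KO_1E7 and 203, 199 and 95.2 CPM in CRISPR_1G2. Its log2 fold change was 0.16 ± 0.32 against parental. Cenpe, a kinetochore kinesin, had KO_1E7 libraries (214, 242 and 214 CPM) above both other groups at 0.29 ± 0.13 and 0.14 ± 0.13, and Cenpf, a kinetochore protein of G2 and M, 0.51 and 0.44; neither was called.

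Bub3, a spindle checkpoint protein that docks BUB1 and BUBR1 on kinetochores (chromosome 7), was the only member called lower in KO_1E7. Its levels were 157, 205 and 131 CPM in parental cells, against 149.9, 144 and 141 in KO_1E7 and 235, 227 and 208 in CRISPR_1G2. CRISPR_1G2 was above all 3 parental and all 3 KO_1E7 libraries, while KO_1E7 lay within the parental range. The group means were 164 ± 37.3 CPM in parental, 145 ± 4.51 in KO_1E7 and 223 ± 13.6 in CRISPR_1G2 (SD, n = 3). The log2 fold change was -0.62 ± 0.16 between the clones (edgeR adjusted p = 0.0397), -0.18 ± 0.16 for KO_1E7 against parental (adjusted p = 0.542) and 0.44 ± 0.16 for CRISPR_1G2 against parental (adjusted p = 0.564). On chromosome 7 the median over 1240 tested genes was -0.53 against CRISPR_1G2 and -0.45 against parental. The 4 members on it, Bub3, Plk1, Mki67 and Prc1, had medians of -0.36 and -0.17. The part of that shift in the value of Bub3 was not tested, nor was it for Prc1 or for the X-linked Kif4, with a median of -0.33 between the clones on its chromosome. Between the clones, chromosome 2 (with Aurka, Bub1, Ube2c and Ncaph) had -0.27 over 1220 genes, and chromosome 11 (with Top2a and Birc5) -0.28 over 1252. Chromosomes 3, 9 and 13 had 0.17, 0.17 and 0.20. The part of these shifts in the values of the members there was also not tested. Chromosome 12 with Ncapg2 and chromosome 17 with Ndc80 had medians of 0.04 and 0.07 against CRISPR_1G2. Bub1, the checkpoint kinase, was at 104, 147 and 66.9 CPM (parental), 92.6, 120.2 and 110.1 CPM (KO_1E7) and 149, 151 and 101 CPM (CRISPR_1G2). Its groups overlapped, and its log2 fold change was 0.33 ± 0.28 for CRISPR_1G2 against parental. Bub1b, which encodes BUBR1, had 0.21 and 0.02 for KO_1E7 against parental and CRISPR_1G2. Mad2l1 and Ttk, which encode MAD2 and MPS1, had 0.43 and 0.50 against parental and 0.38 and 0.46 against CRISPR_1G2, without a call.

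The 3 calls between the clones depended on single libraries. Each log2 fold change kept its sign under all 22 alternatives run, within -0.66 to -0.47 for Bub3, 0.53 to 0.76 for Ndc80 and 0.50 to 0.73 for Ncapg2. Each call was lost when parental 1, any KO_1E7 library, CRISPR_1G2 1 or CRISPR_1G2 2 was left out, and those of Ndc80 and Ncapg2 also without CRISPR_1G2 3. All 3 were also lost with library totals as the only scaling and with no filter on low counts. The highest adjusted p over the alternatives was 0.161 for Bub3, 0.162 for Ndc80 and 0.144 for Ncapg2. Leaving out parental 3 and CRISPR_1G2 3 together gave 13 members called between the clones, where 29.1% of all genes were then called, and the 3 genes were among them. Those then higher in KO_1E7 were Ccnb2, Ndc80, Ncapg2, Ncapd2 and Smc4, and those lower were Aurka, Bub3, Mki67, Top2a, Kif4, Birc5, Ube2c and Prc1. The same exclusion gave 4 members against parental, where 21.0% of genes were called: Ccnb2 (0.53), Ncapg2 (0.43) and Smc4 (0.38) higher and Kif4 (-0.49) lower. With KO_1E7 2 left out as well, 9 were called against parental, where 28.3% of genes were, and 16 against CRISPR_1G2, where 35.5% were. With the third library of every group left out edgeR called 0 against parental, where 11.0% of genes were called, and 7 between the clones, where 19.8% were.

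The deposited column names carry a date or the word NSG, and these are shared across groups in another way than the replicate numbers. Parental 1 and KO_1E7 1 have the same date, parental 2 and CRISPR_1G2 1 have another, the libraries numbered 3 have the word, and KO_1E7 2 and CRISPR_1G2 2 each have a date of their own. What the dates stand for is not given in the sources used here. With these names as a block, KO_1E7 2 and CRISPR_1G2 2 drop out of the group differences and 2 residual degrees of freedom are left. By edgeR that fit called 7 members against parental, where 11.8% of all genes were called, and 9 between the clones, where 14.3% were, all of them higher in KO_1E7; it called 0 for CRISPR_1G2 against parental, where 0.209% were. Ccnb1, Ccnb2, Kif2c, Cenpf, Nuf2 and Ncapd2 were called in both, Ncapg2 against parental, and Ccna2, Kif20a and Kif23 between the clones. Ccnb2 had log2 fold changes of 1.44 ± 0.31 against parental (edgeR adjusted p = 0.0326) and 1.97 ± 0.37 between the clones (adjusted p = 0.0226). The median over the members was 0.43 against parental and 0.51 between the clones. Bub3, Ndc80 and Ncapg2 kept their signs between the clones and were not called (adjusted p = 0.159, 0.0635 and 0.0572). In the fit without the libraries numbered 3 the median against parental was 0.04.

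Of the cyclin genes, Ccnb2, encoding cyclin B2, was at 71.7, 93.3 and 30.9 CPM in the parental libraries, 115, 114 and 128 CPM in KO_1E7 and 76.4, 80.2 and 23.7 CPM in CRISPR_1G2. KO_1E7 lay above every other library, and parental 3 and CRISPR_1G2 3 lay far below their partners. The means were 65.3 ± 31.7, 119 ± 7.86 and 60.1 ± 31.6 CPM in parental, KO_1E7 and CRISPR_1G2 (SD, n = 3). Its log2 fold changes, 0.87 ± 0.48 against parental and 0.99 ± 0.48 against CRISPR_1G2, were the largest of any member and were not called (adjusted p = 0.317 and 0.215). Ccna2, encoding cyclin A2, was at 263, 348 and 128 CPM in parental cells, against 325, 277 and 319 in KO_1E7 and 303, 289.9 and 128 in CRISPR_1G2. Here the dated libraries of all groups overlapped, and the 2 low values were again the third libraries of parental and CRISPR_1G2. Ccnb1, encoding cyclin B1, had the same shape, at 233, 323 and 116 CPM (parental), 319, 282 and 320.1 CPM (KO_1E7) and 277, 291 and 134 CPM (CRISPR_1G2). Cdk1, the kinase these cyclins activate, was at 160.2, 226 and 119.98 CPM in the parental libraries, 172, 154 and 193 CPM in KO_1E7 and 209, 210.2 and 143 CPM in CRISPR_1G2, with all groups overlapping. The phosphatase genes Cdc25b and Cdc25c, whose products activate CDK1, had log2 fold changes of 0.02 and 0.30 against parental and -0.05 and 0.27 against CRISPR_1G2.

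**Figure D4:**
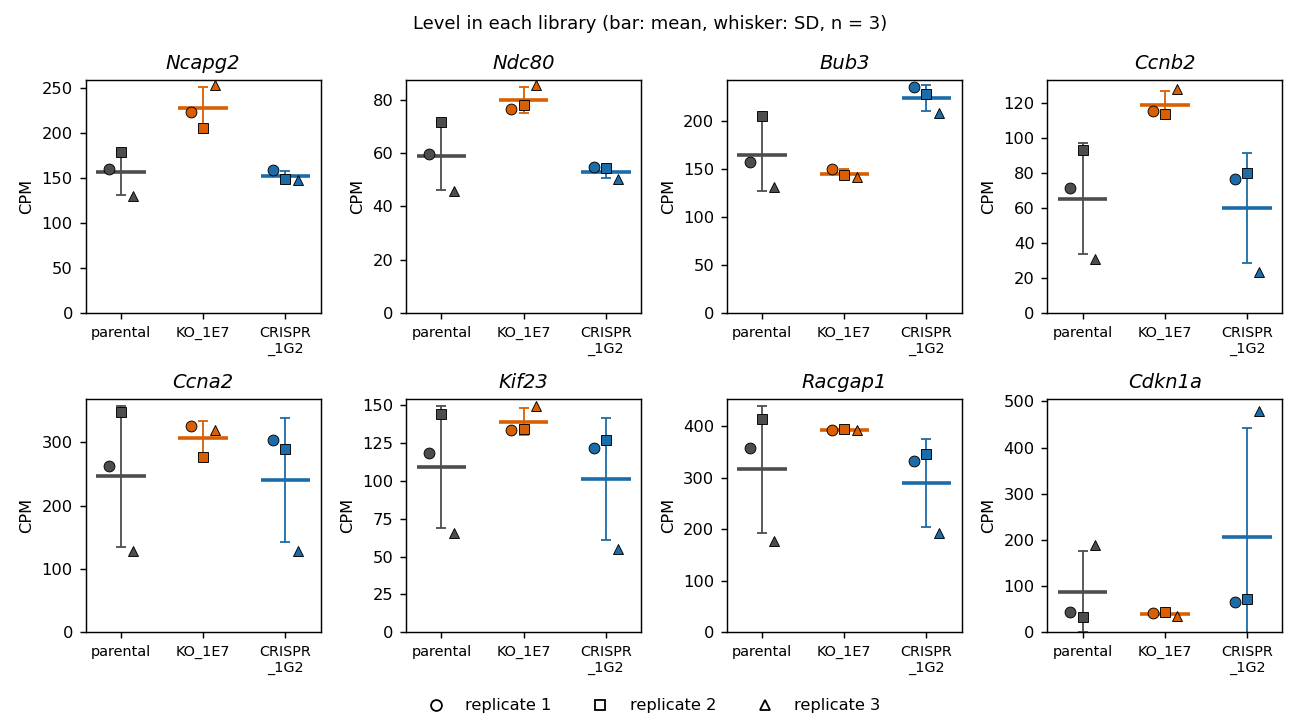
CPM (vertical axis, from 0) of the 7 mitosis genes called in any test and of Cdkn1a in each library; symbols mark the replicate number, bars the group mean and whiskers the SD (n = 3). For Ccnb2, Ccna2, Kif23 and Racgap1 the triangles of parental 3 and CRISPR_1G2 3 lie far below the other libraries, while for Cdkn1a they lie above them.

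Of the 2 Aurora A and Polo kinase genes and the 4 genes of the chromosomal passenger complex, 0 were called between groups by edgeR or DESeq2, and 0 had an unadjusted p below 0.05. The edgeR shares of all genes were 5.42% for KO_1E7 against parental, 0.254% for CRISPR_1G2 against parental and 12.7% between the clones. Those of DESeq2 were 15.0%, 1.49% and 21.4% in that order, and those at an unadjusted p below 0.05 were 23.7%, 7.73% and 29.0%. Aurka, the Aurora kinase of spindle poles, was at 136, 182 and 99.1 CPM in parental cells, against 127, 120.1 and 116 in KO_1E7 and 165, 173 and 143 in CRISPR_1G2. KO_1E7 lay below all CRISPR_1G2 libraries and within the parental range, with a log2 fold change of -0.41 ± 0.20 between the clones (edgeR adjusted p = 0.224). Plk1, the Polo kinase, was at 113, 175 and 58.6 CPM (parental), 111, 102 and 98.2 CPM (KO_1E7) and 143, 151 and 66.9 CPM (CRISPR_1G2), with KO_1E7 inside the range of both other groups. Aurkb, the kinase of the passenger complex that corrects faulty attachments, was at 105, 144 and 60.1 CPM in the parental libraries, 114, 105 and 102 CPM in KO_1E7 and 135, 128 and 76.2 CPM in CRISPR_1G2, with overlap of all groups. Its partner Incenp, the scaffold of the complex, was at 157, 136 and 101 CPM in parental cells, against 164, 137 and 139 in KO_1E7 and 115, 130.3 and 82.04 in CRISPR_1G2. KO_1E7 lay above all CRISPR_1G2 libraries, with 0.42 ± 0.21 between the clones (adjusted p = 0.223), while CRISPR_1G2 against parental gave -0.27 ± 0.21. Birc5, encoding survivin, had -0.06 and -0.08 for KO_1E7 against parental and CRISPR_1G2. Cdca8, encoding borealin, was the steadiest of the complex, at 101, 109.6 and 97.8 CPM (parental), 105, 109 and 105 CPM (KO_1E7) and 100.2, 101 and 116 CPM (CRISPR_1G2).

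Among kinesin and spindle genes the log2 fold changes between the clones had both signs, and edgeR called 0 of 7, with 2 at an unadjusted p below 0.05 and 1 called by DESeq2. Over all genes the shares were 12.7% called by edgeR, 29.0% at an unadjusted p below 0.05 and 21.4% called by DESeq2. Kif4, a chromokinesin that works with PRC1 at the anaphase midzone, was at 74.9, 101 and 50.6 CPM in the parental libraries, 59.9, 67.3 and 60.4 CPM in KO_1E7 and 105, 107 and 73.1 CPM in CRISPR_1G2. Prc1, the microtubule bundler of the midzone, was at 187, 238 and 192 CPM in parental cells, against 153, 184 and 161 in KO_1E7 and 216, 242 and 235 in CRISPR_1G2. Both were lower in every KO_1E7 library than in any CRISPR_1G2 library, with log2 fold changes of -0.60 ± 0.25 and -0.48 ± 0.14 (edgeR adjusted p = 0.147 and 0.0526). Prc1 was also below all parental libraries (-0.31 ± 0.14, adjusted p = 0.209), and DESeq2 called it between the clones (adjusted p = 0.0104). Kif11, encoding the bipolar motor Eg5 that separates spindle poles, was at 165, 207 and 119 CPM (parental), 171, 190.1 and 183 CPM (KO_1E7) and 168, 181 and 152 CPM (CRISPR_1G2), with all groups overlapping. Kif23, the midzone kinesin MKLP1, was at 119, 144 and 65.2 CPM in the parental libraries, 133, 135 and 149 CPM in KO_1E7 and 122, 127 and 55.1 CPM in CRISPR_1G2. KO_1E7 was above CRISPR_1G2 and overlapped parental (0.46 ± 0.35 and 0.35 ± 0.35). Kif20a, encoding MKLP2, and Kif2c, encoding the microtubule depolymerase MCAK, had 0.42 and 0.49 against parental and 0.48 and 0.48 against CRISPR_1G2, and Tpx2, an activator of Aurora A, had -0.03 and -0.04.

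Of 7 genes of anaphase and cytokinesis, 0 were called between groups by edgeR or DESeq2, and 0 had an unadjusted p below 0.05. Of all genes, edgeR called 5.42% for KO_1E7 against parental, 0.254% for CRISPR_1G2 against parental and 12.7% between the clones. DESeq2 called 15.0%, 1.49% and 21.4% in that order, and 23.7%, 7.73% and 29.0% had an unadjusted p below 0.05. Cdc20 was at 196, 338 and 125 CPM in parental cells, against 316, 206 and 276 in KO_1E7 and 243, 258 and 168 in CRISPR_1G2, with all groups overlapping. Ube2c, Espl1, which encodes separase, and Pttg1, which encodes its inhibitor securin, had log2 fold changes of -0.15, 0.29 and 0.48 against parental and -0.34, 0.32 and 0.38 against CRISPR_1G2. Anln was at 729, 766 and 659 CPM (parental), 569.8, 809.6 and 637 CPM (KO_1E7) and 805, 873 and 719 CPM (CRISPR_1G2), the groups overlapping. Ect2, the exchange factor that activates RhoA for the cleavage furrow, had 0.34 ± 0.18 and 0.25 ± 0.18. Racgap1, which forms the centralspindlin complex with KIF23, was at 359, 414 and 178 CPM in the parental libraries, 392, 396 and 392 CPM in KO_1E7 and 332, 346 and 192 CPM in CRISPR_1G2. The KO_1E7 libraries were close together and all above CRISPR_1G2, while the third libraries of parental and CRISPR_1G2 were 0.461 and 0.566 times the mean of their partners.

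The members also differed between the third library and the other 2 within parental and CRISPR_1G2, and less so within KO_1E7. The summed level of the 44 members was 7822, 9941 and 5447 CPM in parental 1, 2 and 3, 8607, 8789 and 8849 CPM in KO_1E7 and 9128, 9326 and 6410 CPM in CRISPR_1G2. The third library was the lowest of its group in parental and CRISPR_1G2 and the highest in KO_1E7. Set against the log2 mean of the other 2, the third library had a median log2 difference of -0.80 over the members in parental, with 43 of 44 below 0, and of -0.62 in CRISPR_1G2, with 39 of 44 below 0. In KO_1E7 the median was 0.02, with 19 below 0. Over all genes the 3 medians were all within 0.01 of 0. Parental 3 was the lowest of its group for 42 members, where 43.0% of all genes had it lowest, and CRISPR_1G2 3 for 39, where 45.2% did. KO_1E7 3 was the lowest for 9 members, where 28.9% of all genes had it lowest.

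**Figure D5:**
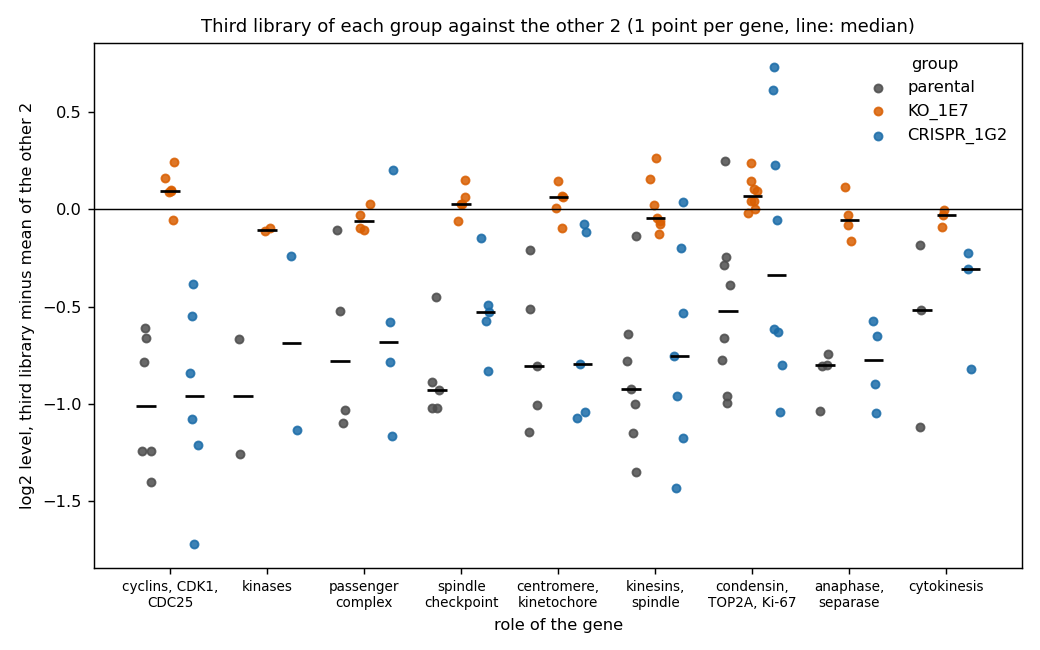
Log2 level of the third library minus the mean of the other 2 libraries of its group (vertical axis), 1 point per gene, by role (horizontal axis) and group (colour), with the median as a line. Parental and CRISPR_1G2 points lie mostly below 0, with medians of -0.80 and -0.62 over the 44 genes, and KO_1E7 points scatter around 0.02.

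By role, the cyclin and CDK1 group had the lowest medians, -1.01 in parental and -0.96 in CRISPR_1G2, against 0.10 in KO_1E7. Within it, Ccnb2 in the third library was 0.378 times the mean of its partners in parental, 0.303 times in CRISPR_1G2 and 1.12 times in KO_1E7. The kinesin and spindle group had -0.92 and -0.75, led by Kif2c at 0.391 and 0.371 times. Kinetochore genes had medians of -0.81 and -0.80, but within them Cenpe stood at only -0.21 and -0.07. Checkpoint genes had -0.93 and -0.53, with Bub3 the least low at -0.45 and -0.15. Nearest to 0 were the medians of cytokinesis (-0.52 and -0.30) and of condensin with Top2a and Ki-67 (-0.52 and -0.34). The last group was split: Top2a was at -0.997 and -1.04, whereas Smc4 was at 0.25 and 0.74, Ncaph at -0.29 and 0.62, and Ncapg at -0.25 and 0.23. Outside condensin, Cdca8 (0.20) and Prc1 (0.04) were also not lower in CRISPR_1G2 3. Members with a CHR match had medians of -0.78 in parental and -0.60 in CRISPR_1G2, and the 7 with a promoter but no CHR match had -1.02 and -0.80, so the third library was low in both sets.

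In a fit with group and the word NSG as additive terms, 0 members and 0% of all genes were called by edgeR; 29 members had an unadjusted p below 0.05, against 33.3% of all genes, and 40 of 44 log2 values were below 0, with a median of -0.48 beside 0.00 over all genes. DESeq2 called 21 members, all lower, where it called 19.3% of all genes, 10.7% as lower. The additive fit assumes 1 difference shared by the groups. Without KO_1E7 3, edgeR called 35 members, 34 lower and Smc4 higher, where 37.7% of all genes were called. Whether the difference was unequal between groups was tested by an interaction of group and word, which leaves 3 residual degrees of freedom. Each library numbered 3 is fitted exactly there, so the p-values of the interaction reflect the spread of the dated libraries alone. This test holds no estimate of the spread among libraries that carry the word. It called 4 members, where 4.73% of all genes were called: Ccnb2 (adjusted p = 0.0249), Kif23 (0.0321), Racgap1 (0.0419) and Ccna2 (0.0493). Unadjusted p-values below 0.05 numbered 29, against 25.6% of all genes, and DESeq2 called 20 members, where it called 15.4% of all genes. The 4 calls were lost without CRISPR_1G2 1 or CRISPR_1G2 2. Leaving out a library numbered 3 removes its group from this test, so another question is then asked. Without KO_1E7 3 it set only CRISPR_1G2 against parental, and none of the 4 was called. Without CRISPR_1G2 3 it set only KO_1E7 against parental, and Ccnb2 was the 1 of the 4 that was kept. Ccna2 was also lost without KO_1E7 2, with RLE size factors, with a minimum mean count of 50 and with ribosomal RNA related genes left out.

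Some other cell cycle genes had the same libraries low or high, while their lists were mixed. Cdkn1a, encoding the CDK inhibitor p21, was at 43.2, 31.8 and 189 CPM in parental cells, against 40.5, 44.2 and 34.1 in KO_1E7 and 64.6, 72.9 and 479.8 in CRISPR_1G2. It was highest in the same 2 libraries, parental 3 and CRISPR_1G2 3, and so was Mdm2, the p53 antagonist and target, at 792, 646 and 1857 CPM (parental), 759, 838 and 761 CPM (KO_1E7) and 872, 1173 and 3909.7 CPM (CRISPR_1G2). Over 17 tested p53 targets the third library differed from its partners by a median of 1.10 in parental, 0.02 in KO_1E7 and 1.81 in CRISPR_1G2, and 8 of the 17 were called in the interaction, where 4.73% of all genes were. Their part in the levels of the mitosis genes was not tested. Most of the other CDK inhibitors were not raised as Cdkn1a was. Over the 6 tested, the third library differed by medians of -0.32 in parental and -0.27 in CRISPR_1G2, with 3 and 5 below 0. Foxm1, a transcription factor that activates G2 and M genes, was at 212, 212 and 148 CPM in the parental libraries, 212, 199 and 204 CPM in KO_1E7 and 219, 213 and 127 CPM in CRISPR_1G2, and Mybl2, which encodes B-MYB, at 141, 140.2 and 57.8 CPM in parental cells, against 97.3, 79.5 and 91.5 in KO_1E7 and 165, 142 and 55.1 in CRISPR_1G2. Both had their lowest level of the group in parental 3 and CRISPR_1G2 3, and Mybl2 was called in the interaction (adjusted p = 0.0307). Over 23 regulators of cell cycle genes, parental 3 was the lowest of its group for 18 and the highest for 3. CRISPR_1G2 3 was the lowest for 16 and the highest for 7. Of all genes, 43.0% had parental 3 lowest and 45.2% had CRISPR_1G2 3 lowest. The 28 DNA replication genes had medians of -0.65 in parental, 0.18 in KO_1E7 and -0.32 in CRISPR_1G2, and the 40 other kinesin, spindle and cytokinesis genes -0.67, 0.03 and -0.65. CRISPR_1G2 3 was the lowest of its group for 17 of the 28 replication genes and the highest for 9, against 7129 and 6962 of all 15766 genes. Ductal epithelial markers had medians of -0.75, -0.29 and -1.06 over 11 tested genes, and their summed level in CRISPR_1G2 spanned 907 to 2130 CPM. The part of that shift, and of the ribosomal RNA share of parental 3, in these differences was not tested. The ribosomal RNA share in CRISPR_1G2 3 was 0.906%. In the fit without ribosomal RNA related genes, the median over the 44 mitosis genes for the word NSG was -0.48, as in the main fit. The interaction then called 3 of them, against 4 in the main fit.

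Other parts of the mitotic machinery were covered by 4 lists. For comparison, 23.7% of all genes had an unadjusted p below 0.05 against parental and 29.0% between the clones. DESeq2 called 15.0% and 21.4% of all genes in these 2 comparisons. Of 17 genes of the anaphase-promoting complex and its regulators, 1 was lower in KO_1E7 than in parental, where 5.42% of all genes were called: Ube2s, the enzyme that extends ubiquitin chains for the complex (chromosome 7), at 197, 223 and 191 CPM (parental), 101, 85.5 and 70.7 CPM (KO_1E7) and 196, 178 and 165 CPM (CRISPR_1G2). Its libraries did not overlap with either other group, and the log2 fold change was -1.25 ± 0.16 against parental (edgeR adjusted p = 0.00918) and -1.06 ± 0.16 against CRISPR_1G2 (adjusted p = 0.00557). Between the clones, 1 of the 17 was higher, Cdc16 (0.78 ± 0.17, adjusted p = 0.0203), and 2 were lower, where 12.7% of all genes were called in either direction, as for the lists that follow. Of 32 other kinetochore and centromere genes, Ska3, of the SKA complex at microtubule ends, was the 1 called higher than in parental (0.70 ± 0.14, adjusted p = 0.0306), and Cenpn, a centromere protein, the 1 called higher than in CRISPR_1G2 (0.55 ± 0.15, adjusted p = 0.0426). Of 16 tested genes of cohesin, its regulators and other condensin subunits, 0 were called against parental (6 at an unadjusted p below 0.05, 3 by DESeq2) and 2 were higher between the clones, led by the cohesin loader gene Mau2 (0.42 ± 0.10, adjusted p = 0.0286). The 40 other kinesin, spindle and cytokinesis genes gave 0 calls in both, with 3 and 6 at an unadjusted p below 0.05 and 2 and 4 called by DESeq2. Cdc16, Cenpn and Mau2 lie on chromosome 8, whose 892 tested genes had a median of 0.34 between the clones. The part of that shift in their values was not tested.

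For the lists here, the shares of all genes against parental were 5.42% by edgeR, 15.0% by DESeq2 and 23.7% at an unadjusted p below 0.05. Between the clones they were 12.7%, 21.4% and 29.0%. Of 23 transcriptional regulators of cell cycle genes, edgeR called 0 against parental (4 at an unadjusted p below 0.05, 2 by DESeq2) and 1 between the clones, Lin54, the MuvB subunit that binds the CHR, at -0.75 ± 0.16 (edgeR adjusted p = 0.0183). Lin54 was at 49.04, 53.8 and 53.3 CPM in the parental libraries, 39.4, 38.4 and 42.7 CPM in KO_1E7 and 58.7, 59.9 and 84.1 CPM in CRISPR_1G2, without overlap of KO_1E7 and CRISPR_1G2. The 9 G1 and S phase cyclins and CDKs gave 0 calls in either comparison by edgeR or DESeq2, with 1 and 3 at an unadjusted p below 0.05. Of 6 tested CDK inhibitors, 2 were higher between the clones and 0 against parental (3 at an unadjusted p below 0.05, 1 by DESeq2). Cdkn2c, encoding p18, led with 1.19 ± 0.32 (adjusted p = 0.0462). Of 28 DNA replication genes, 0 were called against parental (8 at an unadjusted p below 0.05, 4 by DESeq2), and between the clones 2 were higher, led by the licensing factor gene Cdt1 (0.60 ± 0.12, adjusted p = 0.015), and 2 lower, led by the clamp loader gene Rfc4 (-0.53 ± 0.14, adjusted p = 0.0397). Cdt1 lies on chromosome 8, and Rfc4 on chromosome 16, whose median was -0.52 between the clones. Of 17 p53 targets, 1 was higher than in parental (Tnfrsf10b, a death receptor gene, 0.61 ± 0.12, adjusted p = 0.0292) and 2 were lower, led by Perp (-1.57 ± 0.34, adjusted p = 0.0369). Between the clones 4 were lower, again led by Perp (-2.21 ± 0.35, adjusted p = 0.00684). Of the 17, 1 log2 fold change was above 0 against parental and 0 between the clones, where 47.8% of all genes were in each. Their medians were -0.88 and -1.62, beside -0.03 over all genes in each. An unadjusted p below 0.05 was found for 4 and 12, and DESeq2 called 4 and 7. These values include parental 3 and CRISPR_1G2 3, where the summed level of the list was the highest of its group. CRISPR_1G2 against parental gave 0 edgeR calls in each of these 9 lists, with at most 4 genes of a list at an unadjusted p below 0.05. DESeq2 called 1 gene there, among the p53 targets. Of all genes in that comparison, edgeR called 0.254% and DESeq2 1.49%, and 7.73% had an unadjusted p below 0.05. In the interaction, the called genes with the smallest adjusted p were Anapc5 for the anaphase-promoting complex (0.0257), Melk for spindle genes (0.0296), Gins2 for DNA replication (0.0409) and Cdkn1a for p53 targets and CDK inhibitors (0.0197). Kinetochore, cohesin and G1 cyclin genes had 0 called by edgeR, with 14, 5 and 5 at an unadjusted p below 0.05 and 9, 4 and 4 called by DESeq2. Over all genes the shares in the interaction were 4.73%, 25.6% and 15.4%, in that order.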

How the data were processed

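Poly(A) RNA of frozen Panc02 pellets was turned into libraries by a method without strand marking, per the labels' protocols. The submitters' processing notes name bcl2fastq 2.17, STAR 2.5.2b, GRCm38, featureCounts of Subread 1.5.2 and DESeq2. Which annotation and strand setting were used is not given in the sources used here, so overlapping antisense genes cannot be told apart. The authors deposited raw counts per gene. Their series table and sample tables differed in 0 cells, and the 92 spike-in rows (0.344% to 0.820% of counts) were left out.

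All 9 libraries entered 1 fit in R 4.3.3 with edgeR 4.0.16 (robust quasi-likelihood, TMM, filterByExpr), adjusted by Benjamini-Hochberg over 15766 genes at 0.05. DESeq2 1.42.0 was an alternative. The code was tested on simulated counts. Differences of the third library use log2 CPM with a prior count of 2. Ribosomal RNA related genes are 359 genes annotated as such (mitochondrial ones included) or lying over its repeats, assigned here. The members and lists were chosen with earlier results of these data known. Values in every library are given for members called in any test, the 3 highest and 3 lowest log2 fold changes of each pairwise contrast and the first member of each role. Other genes named are Cdkn1a, Mdm2, Foxm1, Mybl2 and the called gene of smallest adjusted p in each list and direction. Ccnb1, Cdca8, Plk1, Smc2 and Smc4 were given per library after their values were seen. Libraries of a group differed beyond sampling noise (chi-square per gene from 8.20 to 759), so each counts once. Same-numbered libraries of CRISPR_1G2 and parental deviated together (r = 0.24, 0.47 and 0.65 across genes), which meets the rule used, over 0.1 in every pair. CRISPR_1G2 2 with parental 1, of unlike number, was also above it (r = 0.14). The third library stood apart in both groups, so this rule cannot show pairing by number. For CRISPR_1G2 against parental the fit blocked by replicate number also called 0 members. Between the clones it called 5, where 2614 of 15766 genes were called. The numbers are not the dates in the deposited column names: CRISPR_1G2 1 shares its date with parental 2 (r = 0.54). A block by date or word was added after seeing the data. Promoters are RefSeq's, build GRCm38.p6. Alternatives were DESeq2, other scalings and filters, leaving out ribosomal RNA related genes, single libraries or sets of the libraries numbered 3, a replicate block, a term for the word NSG, and fitting only the groups compared.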

Additional observations from a re-analysis of the deposited data

Results flagged for a closer look

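The difference between the third library and its 2 partners was unequal between the 3 groups for 4 of the 44 members, by edgeR's test of the interaction of group and the word NSG over all genes. For Ccnb2 (adjusted p = 0.0249) the log2 difference of the third library from its partners was -1.40 in parental, -1.72 in CRISPR_1G2 and 0.16 in KO_1E7. Kif23 (adjusted p = 0.0321) had -1.002, -1.17 and 0.16 in the same order. Racgap1 (adjusted p = 0.0419) had -1.12, -0.82 and -0.01. Ccna2 (adjusted p = 0.0493) had -1.24, -1.21 and 0.09. Each group has 1 such library, so the difference rests on 3 libraries. The spread used by the test comes from the dated libraries alone. The share of members called, 4 of 44, stands beside 4.73% of all genes.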

How the results depend on the processing

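Over the 22 alternatives run for each pairwise comparison, the log2 fold change of 24 of 44 members kept its sign in KO_1E7 against parental, of 10 in CRISPR_1G2 against parental and of 30 between the clones. Without parental 2, 8 members changed sign in the first comparison, Top2a, Birc5 and Tpx2 among them. The most there were 10, with the third library of every group left out. Without parental 3, 22 did in the second, and with the block of dates and the word NSG 13 did in the third. The largest main value that changed sign was that of Ube2c between the clones, -0.34. Of the 3 highest, 3 lowest and called members of each comparison, 3 changed sign: Aurka in KO_1E7 against parental (main -0.20) was 0.048 without parental 2 and -0.38 without parental 3; Ncapd2 in CRISPR_1G2 against parental (-0.20) lay between -0.46 without parental 3 and 0.10 without parental 2, and was 0.02 without CRISPR_1G2 3; Ndc80 there (-0.16) lay between -0.31 and 0.0099 without the same 2 parental libraries. CRISPR_1G2 against parental had 0 members called in all 22 alternatives.

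Counts of members called are given here with, in brackets, the genes called of all genes tested in the same fit. Against parental, the main count for KO_1E7 was 0 (854 of 15766). DESeq2 (2358 of 15766), the minimum mean count of 50 (998 of 11619) and the term for the word NSG (2060 of 15766) each gave 1. Leaving out parental 3 and CRISPR_1G2 3 gave 4 (3330 of 15837). Leaving out KO_1E7 2 as well, a setting chosen after seeing the data, gave 9 (4423 of 15633). The block of dates and the word NSG, also chosen after seeing the data, gave 7 (1855 of 15766). Leaving out single libraries gave 0 to 1 (1 without CRISPR_1G2 3, with 1998 of 16369 genes). Between the clones, where the main count was 3 (2010 of 15766), library totals (1454 of 15766) and no filter (1390 of 31003) gave 0. The replicate block gave 5 (2614 of 15766), the block of dates 9 (2255 of 15766) and the NSG term 7 (3330 of 15766). Leaving out the third library of each group gave 7 (3111 of 15749), and the same 2 exclusions 13 (4615 of 15837) and 16 (5557 of 15633). Leaving out single libraries gave 0 to 4 (453 to 2332 genes). The additive NSG term, with 0 in the main fit (0 of 15766), gave 21 by DESeq2 (3048 of 15766) and 10 with no filter (1584 of 31003). Without single libraries it gave 0 to 35, the latter without KO_1E7 3 (6248 of 16565). The interaction, with 4 (745 of 15766 genes), gave 20 by DESeq2 (2421 of 15766), 16 with library totals (1685 of 15766) and 27 with no filter (2638 of 31003). Without single libraries it gave 0 (without CRISPR_1G2 1, 0 of 16637 genes) to 21 (without parental 1, 1072 of 16449). Without a library numbered 3 it compares only the other 2 groups. The cause of these changes was not tested.

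Over all genes the calls ranged over the alternatives from 24 to 4423 for KO_1E7 against parental (main 854), 15 to 326 for CRISPR_1G2 against parental (40), 453 to 5557 between the clones (2010), 0 to 6248 for the additive NSG term (0) and 0 to 2638 for the interaction (745). DESeq2 called 69 genes higher and 166 lower in CRISPR_1G2 than in parental, against 0 and 40 in the main fit. With library totals 301 genes were higher and 190 lower in KO_1E7 than in parental, against 401 and 453 in the main fit. Same-numbered libraries were not paired by the data between KO_1E7 and parental (r = -0.0034, 0.06 and 0.15) or between the clones (-0.05, 0.13 and 0.07). With 3 libraries a group, precision is limited by the number of libraries. The member of fewest counts, Pttg1, had 176 to 701 per library, and the part of depth in its precision was not tested.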
